A study of Mus with 6 samples.

Results

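The RNA of 10 amino acid transporters that activated T cells are known to use was examined in mouse CD4+ T cells. The genes were named by their known role in activated T cells, but with earlier results of these data known. Their rows were taken from the expression table by gene symbol. Of the 10, 8 had a row among the 10995 protein-coding genes listed. Slc7a11, the cystine carrier, and Slc43a1, a leucine carrier that needs no heavy chain, were not analysed here. Of the 8, 7 had a mean of at least 1 FPKM (sequenced fragments scaled for transcript length and library size) over the libraries and entered the test with all other genes at that level (8816 in all), and the last, Slc1a4, was taken from a fit of all listed genes.

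Naive CD4+ T cells from the spleen of wild-type (WT) mice were activated for 3 days with anti-CD3 (5 μg/mL), anti-CD28 (2 μg/mL) and IL-2 (100 U/mL). One group received an antibody that neutralizes VEGF-B, a growth factor of the VEGF family, and the other normal goat IgG, each at 1 μg/mL and each with 3 libraries. All cells grew in RPMI 1640 with 10% FBS, 2 mM L-glutamine and 55 μM β-mercaptoethanol, the last of which lets cystine enter mouse lymphocytes as a mixed disulfide. The labels do not say whether the 3 libraries of a group came from separate mice, so the p-values measure only the spread between these libraries.

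A T cell that meets its antigen grows and divides, and for this it must bring in amino acids that it cannot make or cannot make fast enough. The carriers that do so sit in the plasma membrane and belong to a few solute carrier families. Some exchange 1 amino acid for another, some use the sodium gradient to concentrate their substrate, and some are heterodimers in which a transporting light chain depends on the glycoprotein Slc3a2 (CD98 heavy chain) to reach the cell surface. Leucine and glutamine that enter this way feed mTORC1, the growth kinase complex, and mice with T cells that lack Slc7a5 or Slc1a5 are known for impaired helper T cell responses.

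The libraries correlated across genes at r = 0.988 to 0.992 within a group and at 0.967 to 0.986 between groups. Most genes were lower with anti–VEGF-B, with a median log2 fold change of -0.15 over the 8816 genes tested, and the levels of the transporters have to be read against this shift. As deposited, 2099 genes passed as lower and 429 as higher, against 913 and 880 after quantile normalization and 807 and 1365 after centring each library on its median. Of 9 CD4 T cell markers Cd3e (log2 fold change -0.51) and Cd5 (-0.38) fell and the other 7, among them Cd4 (limma adjusted p = 0.780), did not pass, and Cd8a was at or under 0.182 FPKM in every library. Cd8b1, the other CD8 T cell marker listed, was at 2.27 to 4.51 FPKM over the libraries. Of 11 myeloid and dendritic cell markers 4 were listed, and their summed level was 4.15 to 5.28 FPKM with anti–VEGF-B and 4.97 to 20.1 with IgG. The highest sum belonged to IgG replicate 3, where Lyz2 reached 16.4 FPKM against 3.26 to 4.19 in the other 5 libraries. Single markers of B cells (Cd79b) and natural killer cells (Eomes) were listed, at no more than 1.34 and 0.203 FPKM. Of 8 erythroid and endothelial markers 2 were listed, Pecam1 at 5.87 to 7.37 FPKM and Klf1 at 0.557 to 1.82, and neither passed. Among 9 markers of T cell activation and division, 6 fell, including Il2ra (log2 fold change -0.97) and Mki67 (-1.48), none rose at an adjusted or unadjusted p under 0.05, and Tfrc had 0.098 (limma adjusted p = 0.324). The summed level of these 9 was 702 to 833 FPKM with IgG and 575 to 632 with anti–VEGF-B. The part of the myeloid and activation markers in the transporter results was not tested, and in RNA from whole cultures fewer cells with a transcript and less transcript per cell cannot be told apart.

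With anti–VEGF-B, 5 of the 7 transporters tested fell, 1 rose and 1 did not pass, where 23.8% of all genes tested passed as lower and 4.87% as higher (limma on log2(FPKM + 1), Benjamini-Hochberg adjustment, adjusted p under 0.05). The falls were led by the glutamine carrier Slc1a5 and by Slc7a5 and Slc7a6, light chains of CD98 heterodimers, each at about 46 to 54% of its IgG level. The heavy chain Slc3a2 moved the other way, to 126% of its IgG level. In these 6 genes the 3 treated values did not overlap the 3 IgG values, with 5 below and 1 above. Over all genes tested the groups lay apart in 38.5% with lower and 10.5% with higher values in anti–VEGF-B. The median log2 fold change of the 7 genes was -0.57. Without IgG replicate 3, 4 transporters passed as lower and 0 as higher, where 1525 and 328 of all 8816 genes tested did. With each gene's own variance in place of the moderated one, 0 of the 7 passed in limma. Of all 8816 genes tested 6 passed as lower in that fit and 6 as higher.

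**Figure D1:**
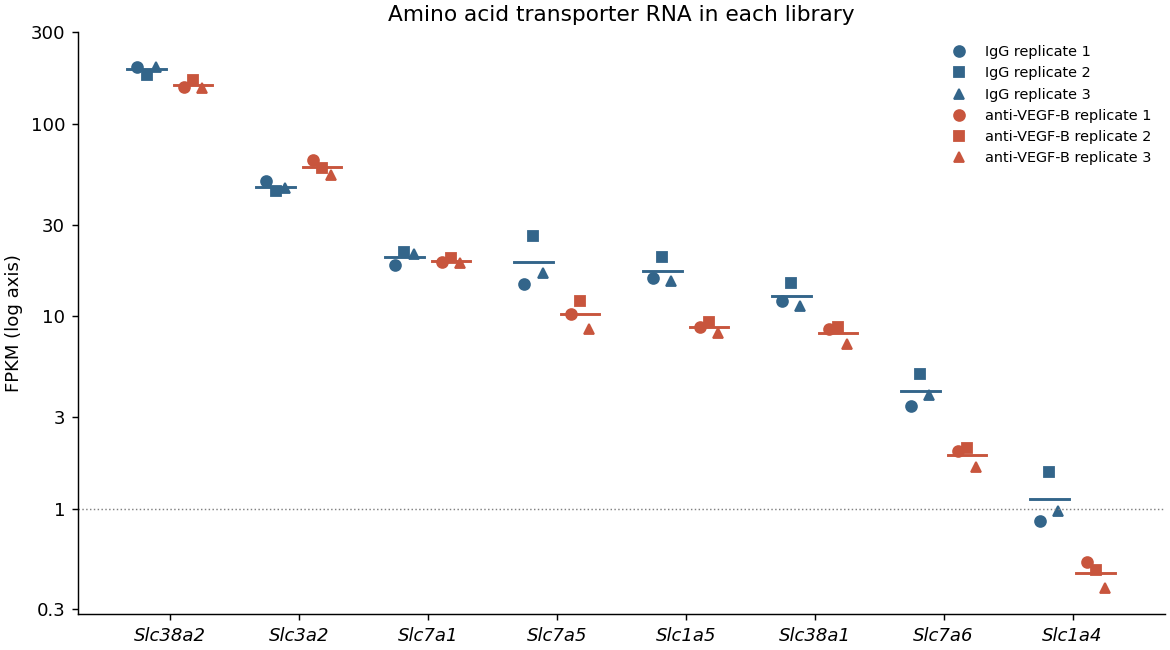
FPKM of 8 amino acid transporter genes on a log axis, with 1 point for each of the 3 IgG (blue) and 3 anti–VEGF-B (red) libraries, a line at each group mean and a dotted line at 1 FPKM. Slc38a2 and Slc3a2 lie above the rest in both groups, the anti–VEGF-B points lie above the IgG points for Slc3a2 only, and the groups overlap for Slc7a1 only.

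Slc7a5 encodes LAT1, which brings in leucine and other large neutral amino acids in exchange for glutamine (ENSMUSG00000040010.10, GRCm38 chromosome 8, 121881150 to 121907694, minus strand). Its level was 14.7, 26.1 and 16.7 FPKM in the IgG libraries and 10.3, 12.0 and 8.65 in the anti–VEGF-B libraries. All 3 treated libraries lay under all 3 IgG libraries, and IgG replicate 2 stood well above the other IgG libraries. The mean was 19.2 ± 6.08 FPKM with IgG and 10.3 ± 1.69 in the treated libraries (SD, n = 3 each), a log2 fold change of -0.80 (SE 0.192, 95% interval -1.24 to -0.37, limma adjusted p = 0.0175). Without IgG replicate 2 it was -0.57 and still passed (limma adjusted p = 0.0295), while without anti–VEGF-B replicate 3 it was -0.69 and did not pass (limma adjusted p = 0.0613, against 0.0106 to 0.125 over the alternatives).

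Slc7a6 encodes y+LAT2, a second light chain of Slc3a2, which exchanges cationic for neutral amino acids (ENSMUSG00000031904.5, chromosome 8, 106168857 to 106198706, plus strand). Its IgG libraries held 3.42, 5.04 and 3.88 FPKM and its treated libraries 2.00, 2.06 and 1.66. The groups lay apart, at a far lower level than Slc7a5. The log2 fold change was -0.81 (SE 0.133, limma adjusted p = 0.00690). The fall of Slc7a6 passed in each fit that left out 1 library.

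Slc3a2, the heavy chain that both of these light chains need, lies on chromosome 19 (8706882 to 8723369, minus strand, ENSMUSG00000010095.13). It was at 50.8, 44.7 and 46.5 FPKM with IgG and at 65.4, 59.1 and 54.5 with anti–VEGF-B. Every treated library was above every IgG library. The mean rose from 47.3 ± 3.13 to 59.7 ± 5.47 FPKM (SD, n = 3 each), a log2 fold change of 0.33 (SE 0.0880, 95% interval 0.13 to 0.52, limma adjusted p = 0.0257). After median centring it was 0.53 (limma adjusted p = 0.0117). The estimate stayed above 0 but lost its call when replicate 1 or 2 of anti–VEGF-B or replicate 2 or 3 of IgG was left out (0.26 to 0.33, limma adjusted p 0.0556 to 0.0781, against 0.0117 to 0.101 over the alternatives).

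Because light chain and heavy chain act as a pair, their ratio was taken within each library, where any factor that scales the whole library cancels. The Slc7a5 to Slc3a2 ratio was 0.289, 0.584 and 0.360 in the IgG libraries and 0.157, 0.203 and 0.159 in the anti–VEGF-B libraries. All treated ratios lay under all IgG ratios, and IgG replicate 2 again stood apart within its group. The mean ratio was 0.411 ± 0.154 with IgG and 0.173 ± 0.0264 with anti–VEGF-B (SD, n = 3 each), a difference in log2 ratio of -1.19, or -0.91 without IgG replicate 2. Slc7a6 was the other light chain analysed here, and with it added the ratio went from 0.498 ± 0.177 to 0.205 ± 0.0290 (log2 difference -1.23). For each of these ratios the two-sided exact permutation test gave p = 0.1, the smallest that 3 against 3 allow (0.133 adjusted over the 4 ratios examined), so no ratio could pass at 0.05.

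Slc1a5 encodes ASCT2, a sodium-dependent exchanger of glutamine and other small neutral amino acids (ENSMUSG00000001918.17, chromosome 7, 16781340 to 16798274, plus strand). Its level was 15.8, 20.4 and 15.3 FPKM in the IgG libraries and 8.82, 9.41 and 8.18 in the treated libraries. The treated libraries lay close together and all under the IgG libraries. The mean fell from 17.1 ± 2.83 to 8.80 ± 0.614 FPKM (SD, n = 3 each), a log2 fold change of -0.88 (SE 0.117, 95% interval -1.14 to -0.62, limma adjusted p = 0.00488). This was the lowest adjusted p of the 7 transporters, and it stayed under 0.05 without any 1 library and under both scalings. Within libraries the Slc1a5 to Slc7a5 ratio was 0.923 ± 0.147 with IgG and 0.863 ± 0.0820 with anti–VEGF-B, with overlapping groups (two-sided exact permutation test, p = 0.6, n = 3 each). The log2 difference of this ratio was -0.090, and without IgG replicate 1 it was 0.027.

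**Figure D2:**
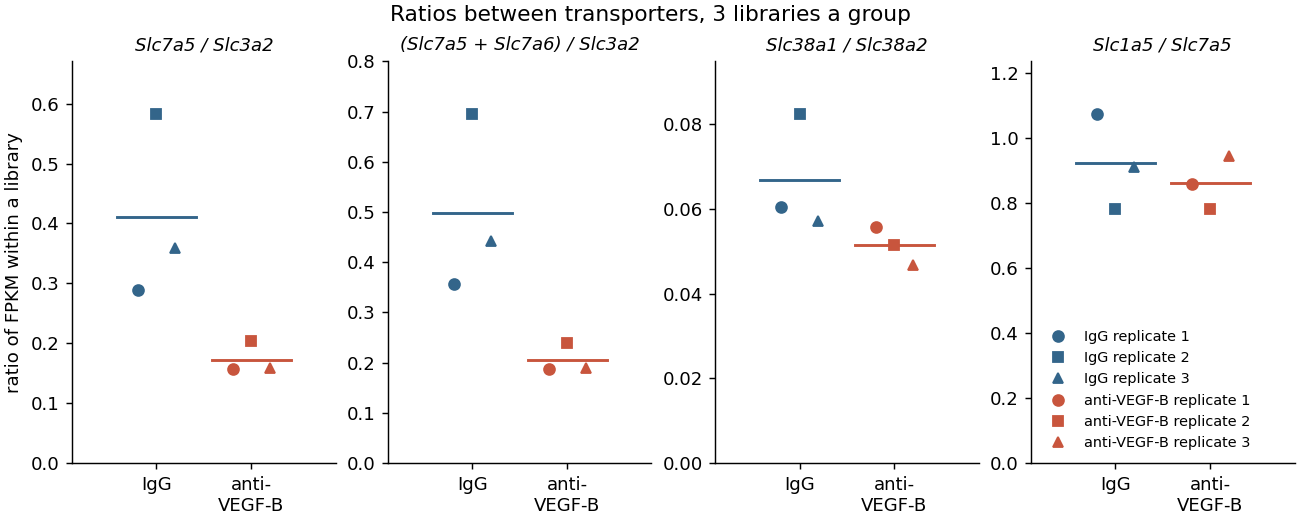
Ratios of FPKM within each library for 4 combinations of transporter genes, each axis starting at 0, with IgG libraries in blue, anti–VEGF-B libraries in red and a line at each group mean. The Slc7a5 to Slc3a2 ratio falls from a mean of 0.411 to 0.173 with the groups apart, the ratio with Slc7a6 added behaves likewise, and the Slc1a5 to Slc7a5 ratio overlaps between the groups.

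The sodium-coupled carriers Slc38a1 (SNAT1) and Slc38a2 (SNAT2) take up glutamine, alanine and other small neutral amino acids and can load the cell with the glutamine that Slc7a5 gives up in exchange. Their genes are neighbours on chromosome 15, both on the minus strand and 44.5 kb apart (Slc38a1 96571418 to 96642913, ENSMUSG00000023169.14, and Slc38a2 96687394 to 96699698, ENSMUSG00000022462.6). Slc38a1 was at 12.0, 14.9 and 11.4 FPKM with IgG and at 8.64, 8.78 and 7.18 with anti–VEGF-B. RefSeq places a long noncoding RNA gene, Gm32457, across the same stretch. The groups lay apart, with a log2 fold change of -0.57 (SE 0.119, limma adjusted p = 0.0118), or -0.37 after median centring (limma adjusted p = 0.0245).

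Slc38a2 was by far the most abundant of the transporters, at 198, 180 and 199 FPKM in the IgG libraries and 155, 170 and 153 in the treated ones. The groups lay apart, but the gap between the lowest IgG library and the highest treated one was narrow. The log2 fold change was -0.27 (SE 0.0768, 95% interval -0.44 to -0.095, limma adjusted p = 0.0313), -0.12 relative to the median of all genes. That median depends on level, at -0.15 over the 8816 genes tested and -0.090 over those with a mean of at least 5 FPKM. After quantile normalization the log2 fold change of Slc38a2 was -0.36 (limma adjusted p = 0.0122). After median centring it was -0.067 and did not pass (limma adjusted p = 0.658). The call was lost, too, in the fits that left out replicate 1 or 3 of either group (limma adjusted p 0.0633 to 0.117, against 0.0122 to 0.658 over the alternatives). The ratio of Slc38a1 to Slc38a2 was 0.0668 ± 0.0138 with IgG and 0.0514 ± 0.00448 with anti–VEGF-B (two-sided exact permutation test, p = 0.1, n = 3 each). Its log2 difference of -0.36 was -0.20 without IgG replicate 2 and -0.11 after quantile normalization.

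Slc7a1 encodes CAT1, a carrier of arginine and lysine that works without a heavy chain (ENSMUSG00000041313.14, chromosome 5, 148327410 to 148399904, minus strand). It had 18.6, 21.5 and 21.0 FPKM in the IgG libraries and 19.3, 20.0001 and 18.9 in the treated ones. The groups overlapped, with a log2 fold change of -0.065 whose 95% interval ran from -0.25 to 0.12 (limma adjusted p = 0.570). It was above 0 after quantile normalization (0.025) and median centring (0.14), and did not pass under either.

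Slc1a4 encodes ASCT1, which carries serine, alanine, cysteine and threonine (ENSMUSG00000020142.12, chromosome 11, 20302180 to 20332713, minus strand). It was the least abundant transporter, at 0.864, 1.55 and 0.968 FPKM in the IgG libraries and 0.529, 0.479 and 0.388 in the treated ones. The groups lay apart, with the treated libraries at 41.3% of the IgG mean. In the fit of all listed genes its log2 fold change was -0.52 (SE 0.124, limma adjusted p = 0.0218), a scale on which a gene this low is understated, and with a pseudocount of 0.1 it was -1.08. After median centring it was -0.30 and did not pass (limma adjusted p = 0.0527, against 0.0198 to 0.106 over the alternatives), as was the case without anti–VEGF-B replicate 2 (-0.53) or replicate 3 (-0.49).

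**Figure D3:**
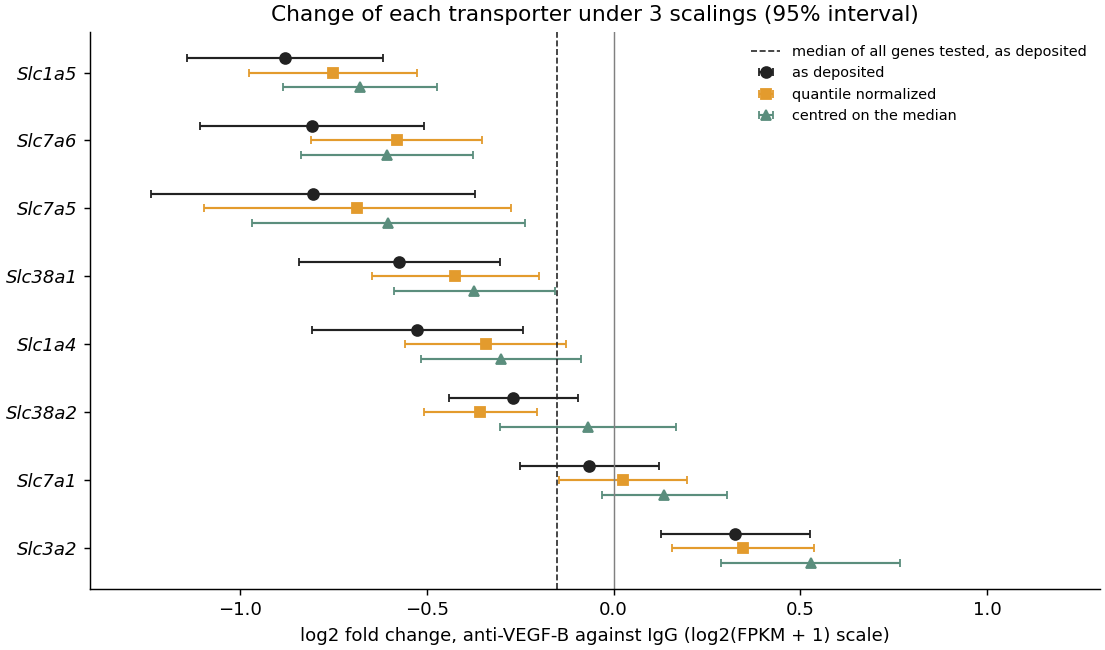
Log2 fold change of each transporter between anti–VEGF-B and IgG (limma estimate with its 95% interval, n = 3 each) with values as deposited (black), quantile normalized (orange) and centred on the library median (green). The dashed line marks the median of all genes tested, -0.15. Slc1a5, Slc7a6, Slc7a5 and Slc38a1 stay below 0 and Slc3a2 above 0 under all 3, Slc38a2 runs from -0.36 to -0.067, and Slc7a1 changes sign.

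If the deposited values are FPKM, as was assumed, they are scaled for transcript length, and levels can be set side by side between genes. With IgG the order by mean FPKM was Slc38a2, Slc3a2, Slc7a1, Slc7a5, Slc1a5, Slc38a1, Slc7a6 and Slc1a4. Slc7a1, Slc7a5 and Slc1a5 followed each other at 20.4, 19.2 and 17.1 FPKM with overlapping ranges, and all other neighbours lay apart. With anti–VEGF-B the order of means was the same, but Slc7a1 at 19.4 FPKM now lay apart from Slc7a5 at 10.3. There the overlapping neighbours were Slc7a5 with Slc1a5 and Slc1a5 with Slc38a1, at 8.80 and 8.20 FPKM.

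The place of a transporter among all tested genes of the same library shows its level without any scaling between libraries. Slc7a5 was above 72.3 to 82.7% of the genes in the IgG libraries and above 62.2 to 68.8% in the anti–VEGF-B libraries. Slc1a5 went from 73.0 to 77.9% down to 60.7 to 63.1%, and Slc7a6 from 32.4 to 39.4% down to 17.0 to 21.5%. Slc3a2 went up from 90.3 to 91.8% to 92.7 to 93.6%. The place of Slc38a2 was 97.5 to 97.7% with IgG and 97.1 to 97.4% with anti–VEGF-B, and that of Slc7a1 overlapped, with 77.4 to 79.9% and 78.8 to 79.4%.

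The summed FPKM of the 8 listed transporters, a quantity chosen after the values were seen, was 314 in each of the 3 IgG libraries and 270, 282 and 253 in the anti–VEGF-B libraries. Slc38a2 alone made up 57.3 to 63.2% of this sum over all libraries. Slc3a2 went from 15.1 ± 1.01% of the sum with IgG to 22.3 ± 1.74% with anti–VEGF-B, Slc1a5 from 5.46 ± 0.902% to 3.28 ± 0.050%, and Slc7a5 from 6.10 ± 1.93% to 3.83 ± 0.422% (SD, n = 3 each). Without Slc38a2 and Slc3a2, the remaining 6 genes summed to 74.6 ± 13.0 FPKM in the IgG and 49.1 ± 3.92 in the treated libraries.

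Of 46 further amino acid transporter genes, listed from general knowledge but with earlier results of these data known, 16 had a row. Of the 10 tested, 4 fell, where 23.8% of all genes tested did. Without anti–VEGF-B replicate 3 this was 1 gene of the list and 695 of all 8816 genes. No gene of this list passed as higher in limma, at an adjusted or an unadjusted p under 0.05. Slc6a6, the taurine carrier, was the most abundant of them and went from 21.9 to 13.6 FPKM (log2 fold change -0.65, limma adjusted p = 0.00756). The glycine carrier Slc6a9 (-0.56, adjusted p = 0.0155), the lysosomal cystine exporter Ctns (-0.50, adjusted p = 0.0133) and the cationic amino acid carrier Slc7a3 (-0.31, adjusted p = 0.0495) also fell in limma. The call of Slc7a3 was lost in every alternative in which it was tested. Slc6a9 did not pass under quantile normalization or median centring, and Ctns did not pass under quantile normalization. Slc38a10 had a mean of 6.17 FPKM under IgG and 5.06 under anti–VEGF-B (limma adjusted p = 0.254). Slc15a4, a lysosomal carrier of histidine and peptides, had a log2 fold change of 0.15 (limma adjusted p = 0.267), but 0.37 after quantile normalization and 0.35 after median centring, where it passed. The median of the 10 genes was -0.24, against -0.57 for the 7 transporters above and -0.15 for all genes tested.

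Among 41 genes of amino acid sensing upstream of mTORC1 and of mTORC1 itself, 32 were tested, of which 9 fell and 2 rose, with a median log2 fold change of -0.18. Both counts were near the 23.8% lower and 4.87% higher over all genes tested, and the median was near that of all genes, -0.15. Sesn2, which holds mTORC1 back when leucine is scarce, fell from 24.9 to 14.9 FPKM (log2 fold change -0.70, limma adjusted p = 0.00711). The scaffold gene Lamtor2 (-0.58), the leucyl-tRNA synthetase gene Lars (-0.55), Mtor (-0.47) and Sesn1 (-0.41) also fell. Without anti–VEGF-B replicate 3 only Sesn2 and Lamtor2 of this list passed as lower, and without anti–VEGF-B replicate 2 or IgG replicate 2 it was 5 genes. In these fits 695, 1430 and 1101 of all 8816 genes tested passed as lower. Rragd, a Rag GTPase that carries the amino acid signal at the lysosome, rose from 9.83, 7.95 and 9.82 FPKM with IgG to 19.8, 15.9 and 16.2 with anti–VEGF-B (log2 fold change 0.84, limma adjusted p = 0.00491). Gatsl3, the arginine sensor also called Castor1, had a log2 fold change of 0.30 (limma adjusted p = 0.0486). It passed after quantile normalization (0.44, limma adjusted p = 0.0172), after median centring (0.50, limma adjusted p = 0.00905) and with a pseudocount of 0.1. The call was lost in each of the 6 fits without 1 library, without the filter and at a mean of at least 5 FPKM. With the replicate number as a block it was lost, too. After quantile normalization Sesn2 and Lamtor2 were the only genes of this list that passed as lower, and after median centring Sesn2, Lamtor2 and Mtor. Under these scalings 913 and 807 of all 8816 genes tested passed as lower.

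**Figure D4:**
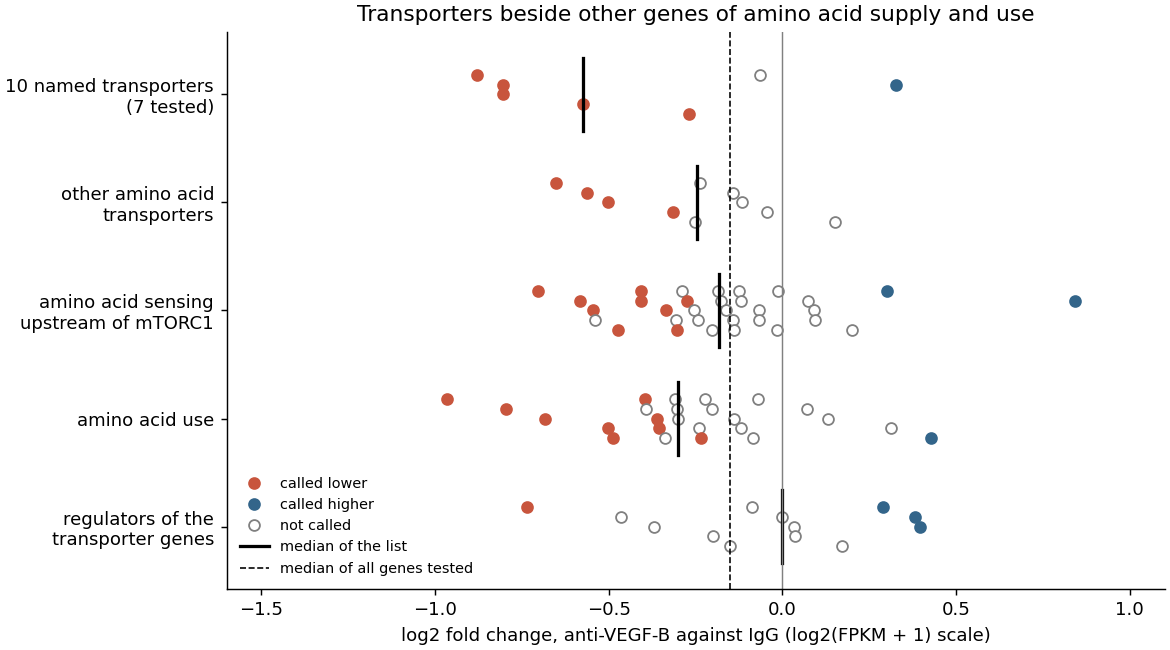
Log2 fold change (log2(FPKM + 1) scale) of each tested gene in 5 lists of amino acid supply and use, with genes that passed as lower in red, as higher in blue and the others open. A black bar marks the median of each list and the dashed line that of all genes tested, -0.15. The transporters have their median at -0.57 and the regulators theirs at -0.00067.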

How the data were processed

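RNA from 6 samples of activated CD4+ T cells, 3 with anti–VEGF-B and 3 with IgG, was sequenced from stranded libraries. The authors aligned reads to GRCm38 with hisat2 and quantified them with StringTie and Ballgown, and deposited values for 10995 protein-coding genes. The table names no unit and is called raw data, yet it holds decimals, so the deposited values were taken as FPKM, the gene-level unit of these tools. No scaling between libraries is stated. Among genes under 0.3 FPKM at most 1.40% shared a ratio between a pair of libraries, so reads could not be recovered and depth is unknown. The sums of FPKM were 260058 to 276622.

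Columns were matched to samples by treatment and number, and 0 columns were left over. Genes whose mean over the 6 libraries reached 1 FPKM (8816) were fitted on log2(FPKM + 1) with limma 3.58.1 (R 4.3.3, empirical Bayes with trend, no covariate), as unpaired groups, with Benjamini-Hochberg adjustment over all genes tested. Slc1a4 came from the same fit without the filter. Ratios of FPKM were tested with exact permutation (scipy 1.17.1). The fit was also run on simulated data with independent noise for each gene and few genes changed. That setting cannot show how the fit behaves where most genes shift. Gene coordinates are those of the deposited table. By RefSeq (GRCm38.p6) no other gene overlaps the transporters, except a long noncoding RNA gene at Slc38a1, and whether reads were counted by strand is not given in the sources used here. All transporters are described, and from the other lists genes that passed (at most 8 further transporters and 6 of each other list), abundant transporters, Myc, Atf4 and Mtor. Gatsl3, Asns and the single marker genes were named after their values were seen. The members and lists were chosen with earlier results of these data known. Alternatives changed the scaling, pseudocount (0.1), filter, moderation, replicate block and libraries included.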

Additional observations from a re-analysis of the deposited data

How the results depend on the processing

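Of the 7 transporters tested, quantile normalization left 5 lower and 1 higher, median centring 4 and 1, and 5 and 1 passed with the replicate number as a replicate block. Of all 8816 genes tested, 913, 807 and 2109 passed as lower under these settings, in the same order, and 880, 1365 and 469 as higher. Deviations of same-numbered libraries from their group means had r = -0.030, 0.11 and 0.089 across genes, against -0.175 to 0.0997 for libraries of unlike number. Deviations from a mean of 3 libraries constrain each other, so these values cannot settle whether the numbers pair the libraries. With no moderation of the variance (limma without empirical Bayes), 0 passed in either direction in any of the 5 lists. Of all 8816 genes tested 6 passed as lower and 6 as higher in that fit. Leaving out 1 library gave 3 to 5 transporters lower, fewest without anti–VEGF-B replicate 3, and 0 to 1 higher. Over all 8816 genes tested these fits gave 695 to 2071 lower and 164 to 396 higher, fewest in both directions without anti–VEGF-B replicate 3. Of all genes, 2270 of 10995 passed as lower and 412 as higher without a filter. At a mean of at least 5 FPKM 989 of 4927 passed as lower and 342 as higher. Further transporters numbered 4 lower and 0 higher as reported, but 1 and 1 with quantile normalization, 2 and 1 with median centring, 7 lower without a filter, 1 lower at a mean of at least 5 FPKM and 1 to 3 lower without 1 library (fewest without anti–VEGF-B replicate 3). Sensing genes numbered 2, 3 and 5 lower under quantile normalization, median centring and a mean of at least 5 FPKM, with 1 higher at that mean, without a filter and under the replicate block, and 2 to 7 lower and 1 higher without 1 library. Genes of amino acid use numbered 3 lower and 3 higher under either scaling, 4 lower at a mean of at least 5 FPKM, and 3 to 7 lower and 1 to 2 higher without 1 library. Regulators numbered 5 higher after median centring, where 1365 of all 8816 genes tested passed as higher. Under the replicate block 2 regulators passed as lower, where 2109 of all genes did. Without 1 library 1 to 2 regulators were lower and 0 to 3 higher. The counts over all genes to set beside the other lists are those given earlier in this paragraph for the same settings. The causes were not tested. The log2 difference of the Slc38a1 to Slc38a2 ratio was -0.11 after quantile normalization, and that of Slc1a5 to Slc7a5 ran from -0.20 to 0.027 without 1 library. The log2 fold change of Slc7a1 turned to 0.025 with quantile normalization and to 0.14 with median centring. FPKM carry no depth, so what counting error adds is unknown.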

Other observations

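Enzymes that use the imported amino acids were examined as well. Of 32 such genes 25 were tested, and 9 fell and 1 rose, with a median log2 fold change of -0.30, where 23.8% of all genes tested fell and 4.87% rose. Gclc, the catalytic subunit for the first step of glutathione synthesis from cysteine and glutamate, went from 8.83 to 5.09 FPKM (-0.68, limma adjusted p = 0.00657). Dbt, a subunit of the complex that breaks down branched-chain keto acids (-0.97), and Aldh18a1, which starts proline synthesis from glutamate (-0.79), fell as well, as did Mat2a (-0.50) and Cth (-0.49). Under quantile normalization and median centring Mat2a and Cth did not pass. The number that fell was 3 without IgG replicate 2, 4 without anti–VEGF-B replicate 1 or 3, and 5 without anti–VEGF-B replicate 2. In these fits, in the same order, 1101, 1367, 695 and 1430 of all 8816 genes tested passed as lower. The cytosolic aspartate aminotransferase gene Got1 rose from 96.5, 78.9 and 91.6 FPKM with IgG to 116, 119 and 125 with anti–VEGF-B (0.43, limma adjusted p = 0.0111).

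Among 13 tested genes known to control these transporters, 1 fell and 3 rose, beside the same 23.8% and 4.87% over all genes. Atf4, the transcription factor of the amino acid response, which is known to induce Slc3a2, Slc7a5 and Slc7a1, rose from 628, 526 and 590 FPKM with IgG to 756, 763 and 770 with anti–VEGF-B (log2 fold change 0.40, limma adjusted p = 0.0127). Its target Trib3 (0.29) and Hif1a (0.38) rose too, while Asns, another gene that Atf4 is known to induce, had -0.22 (limma adjusted p = 0.108). Of the transporters that Atf4 is known to induce, Slc3a2 rose (0.33), Slc7a5 fell (-0.80) and Slc7a1 did not pass (-0.065). With anti–VEGF-B replicate 3 left out, Atf4, Trib3 and Hif1a no longer passed. Trib3 passed in 1 of the 6 fits that left out a library, the one without IgG replicate 1. Myc, known to drive transporter expression in activated T cells, was at 19.3, 30.3 and 21.3 FPKM with IgG and at 18.3, 17.7 and 14.0 with anti–VEGF-B (-0.46, limma adjusted p = 0.0581). It passed without IgG replicate 1 (limma adjusted p = 0.0358) and with the replicate number as a block (limma adjusted p = 0.0406), but in no other alternative. Nfe2l2, the antioxidant regulator, fell from 19.9 to 11.5 FPKM (-0.74, limma adjusted p = 0.00488).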
